A study of Mus musculus with 18 samples.

Results

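Circular RNAs (circRNAs) of the nucleus and of the whole cell were compared in XPO4 KO NIH/3T3 cells. NIH/3T3 is a line of mouse embryonic fibroblasts, and the KO line lacks functional XPO4, an exportin, after CRISPR-Cas9 editing that altered both gene copies in the same way. The libraries were chosen by their titles, 2 of nuclear RNA and 2 of whole-cell RNA, all of the XPO4 knockout genotype and all circRNA-seq, out of 18 samples in the series. The 12 circRNA-seq libraries of the series listed 16171 distinct circles, of which 11148 were in these 4 libraries. A circle was identified by its chromosome, start and end, and a circle that a library did not list was counted as 0 reads there. The same 2 fractions of WT NIH/3T3 cells, 4 libraries, served for comparison. The KO data come from 1 edited line, and nothing in the labels says that the replicates were separate cultures, so the spread between them may be technical.

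A circRNA forms when the spliceosome joins the end of an exon back to the start of the same or an earlier exon, a step called backsplicing. The joined ends leave a junction that a linear mRNA does not have, and reads across it count the circle. Most circles that consist of exons alone leave the nucleus, and the exportin XPO4 was studied as a factor in this export. Circles that keep an intron between their exons, and circular intron lariats, are known as RNAs that stay in the nucleus. Whole-cell RNA holds the nuclear circles as well as the cytoplasmic ones, so a nuclear circle can be looked up in it.

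The junctions of a few circles on which the results turn are shown first, 5′ to 3′ on the transcribed strand and read from the GRCm38 genome. Lower case marks the last 15 bases of the circle before the backsplice, and capitals mark the first 15 bases after it. Nfix, Hipk3, Atxn2 and Knl1 had circles listed in both fractions.
Nfix: ttgtccacactccggGATGAGTTCCACCCG
Hipk3: atctcgctactacagGTATGGCCTCACAAG
Atxn2: tggccccaacactagATGCTTTTACTGACT
Knl1: acaaaagattgacgaCACAGCGTAATAGCC
Ptchd4 and Ttll5 had the most nuclear reads among the exon-edge circles that no KO whole-cell library listed.
Ptchd4: ctttcttcgccatggGATGGGAGGAACAGT
Ttll5: atgggaaatatatggCGCACCCGTCCACTC
Dtnb and Ankib1 had the circles with most whole-cell reads among those that no KO nuclear library listed.
Dtnb: gagcattcctcttggTGAGGGCCGAGGCAA
Ankib1: tgcttcgagctcacgAATGTGAAACATGTT

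The nuclear libraries were shallow. They held 3743 and 4383 junction reads over 1101 circles each, and the whole-cell libraries held 58165 and 50341 junction reads over 9779 and 9851 circles, 13.4 times as many reads in sum. No circle was listed in fewer than 2 of the 4 nuclear or of the 4 whole-cell libraries of both genotypes together, so a circle not listed here is one that did not pass into the deposited list. Across circles with at least 10 reads, the replicates differed by more than sampling noise, with a chi-square per degree of freedom of 1.21 over 243 circles in the KO nucleus and 1.98 over 3759 circles in the KO whole cell. Over all 1148 nuclear circles the same value was 0.772, less than sampling noise. In the 3 KO mRNA-seq libraries, all 10 fibroblast markers had at least 100 reads, and their summed level was 20428 to 23005 CPM (counts scaled to the library total). The 13 markers of immune, epithelial, endothelial, erythroid and neuronal cells summed to between 13.2 and 14.96 CPM, with Cd3e, Epcam, Krt8, Cdh5 and Hbb-bs at 0 in all 3 libraries. Xpo4 itself had 712, 504 and 687 mRNA reads in the libraries titled KO and 657, 614 and 685 in those titled WT, so a read count over the whole gene does not check the genotype label here.

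The question was which nuclear circles were also found in whole-cell RNA. Circles were classed by their ends. In an exon-edge circle, both ends were exon edges of 1 annotated transcript, and in an off-edge circle at least 1 end was not an annotated exon edge. Of 662 exon-edge circles listed in either KO nuclear library, 479 were also listed in KO whole-cell RNA, 72.4% (95% exact interval 68.8% to 75.7%). Of 468 off-edge nuclear circles, 0 were listed in KO whole-cell RNA, which allows a share of up to 0.641% by the limit of 3 counts and 0.785% by the exact 95% interval. Of 11 nuclear circles whose ends were edges of different transcripts, 9 were listed there. A further 7 nuclear rows named several positions each, and 0 of these were listed as the same row in whole-cell RNA. Their single positions were not matched to the whole-cell circles. These intervals and limits take circles as independent draws. Circles are not replicates, so the intervals and limits give neither the spread between libraries nor the error of the read counts. The sources name no molecular identifiers for the reads.

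Per library, 468 of 646 exon-edge circles of the first nuclear replicate were listed in whole-cell RNA and 473 of 651 of the second, 72.4% and 72.7%. The listed circles held 1987 of 2627 exon-edge junction reads in the first replicate and 2083 of 2767 in the second, 75.6% and 75.3%. Over all classes, 43.3% and 43.8% of the nuclear circles were listed. Off-edge circles made up 438 of 1101 circles in the first nuclear library and 432 of 1101 in the second, 39.8% and 39.2%. They made up 1 circle in each whole-cell library, 0.0102% of the circles there. The nuclear share was 39.5% ± 0.385 (SD, n = 2), and the fractions did not overlap. Permuting the 4 libraries exactly (two-sided) gave p = 0.333, which with 2 libraries a side is as small as p can be.

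**Figure D1:**
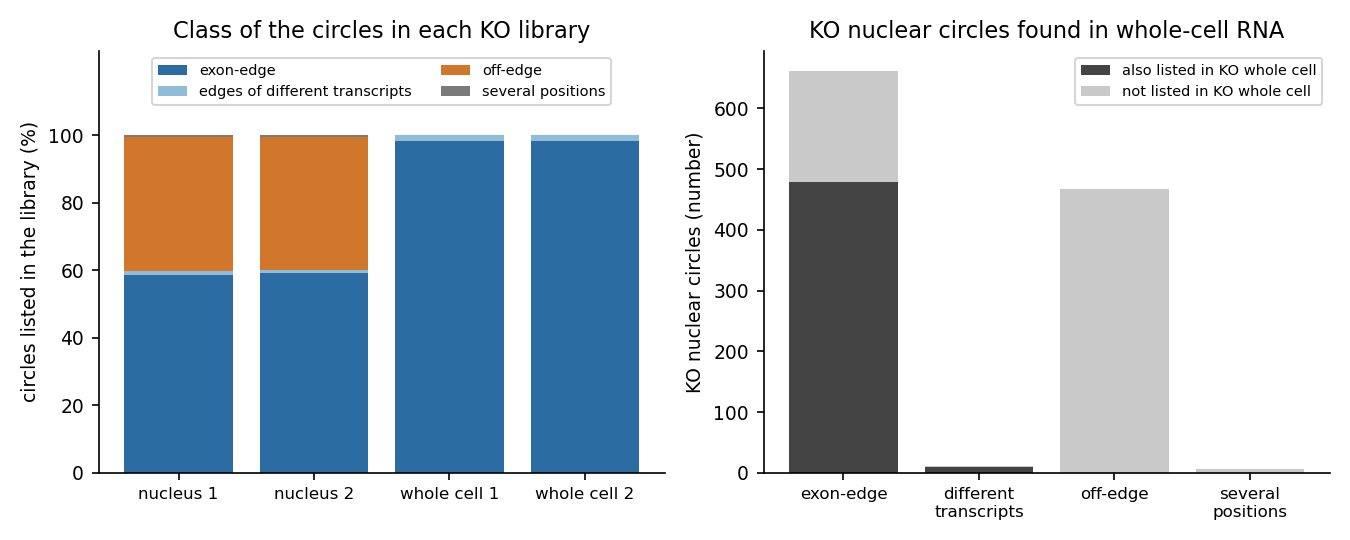
Left, percent of the circles of each KO library by class of their ends; right, number of KO nuclear circles of each class that the KO whole-cell libraries also listed. Off-edge circles (orange) took 39.8% and 39.2% of the nuclear lists and 0.0102% of the whole-cell lists, and 479 of 662 exon-edge against 0 of 468 off-edge nuclear circles were listed in whole-cell RNA.

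The single off-edge circle of the whole-cell lists lay in Mia3, at chr1:183350964-183354040, with 6 and 10 reads in the KO whole-cell libraries and 0 in the nuclear ones. The KO cytoplasmic libraries listed 4 off-edge circles each. The filters that the authors applied to each fraction are not given in the sources used here, and an effect of such a filter on the off-edge class cannot be told apart from the fraction itself.

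WT cells gave similar shares of exon-edge circles, but largely over the same circles. Of the 662 exon-edge KO nuclear circles, 643 were listed in the WT nucleus and 479 in WT whole-cell RNA, so the shares are not independent. In WT, 73.0% and 72.7% of the exon-edge circles of the nuclear libraries were listed in WT whole-cell RNA. The KO and WT means were 72.6% ± 0.150 and 72.9% ± 0.196 (SD, n = 2 each), a difference of -0.331 percentage points (two-sided exact permutation test, p = 0.333). Weighted by reads, the listed circles held 75.5% ± 0.253 of the exon-edge reads in KO and 79.3% ± 0.381 in WT (SD, n = 2 each), a difference of -3.81 percentage points with no overlap (exact two-sided permutation, p = 0.333). The share over all classes was 43.6% ± 0.321 in KO and 41.7% ± 0.313 in WT (SD, n = 2 each, two-sided exact permutation test, p = 0.333). The WT nuclear libraries listed fewer circles, 1001 and 957, and held 2189 and 2635 junction reads. Off-edge circles made up 42.9% and 41.8% of the circles in these libraries and 1 circle in each WT whole-cell library, so their nuclear share was not particular to KO.

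The share listed was higher for circles with more reads, in both directions. Among exon-edge nuclear circles with 1 to 2 reads over both KO nuclear libraries, 24 of 37 were listed in whole-cell RNA, 64.9%. With 10 to 62 reads, 154 of 188 were listed, 81.9% (95% exact interval 75.7% to 87.1%). Of the off-edge circles, 0 of 48 with 10 to 18 nuclear reads were listed, for which the exact interval ends at 7.40%. In the other direction, of 3407 exon-edge whole-cell circles with 1 to 4 reads, 54 were listed in the nucleus, 1.58%. Of 58 with 100 to 1358 whole-cell reads, 40 were listed in the nucleus, 69.0% (95% exact interval 55.5% to 80.5%). Over all 10319 exon-edge whole-cell circles, 4.64% were listed in the nucleus, and these held 19.4% of the exon-edge whole-cell reads.

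**Figure D2:**
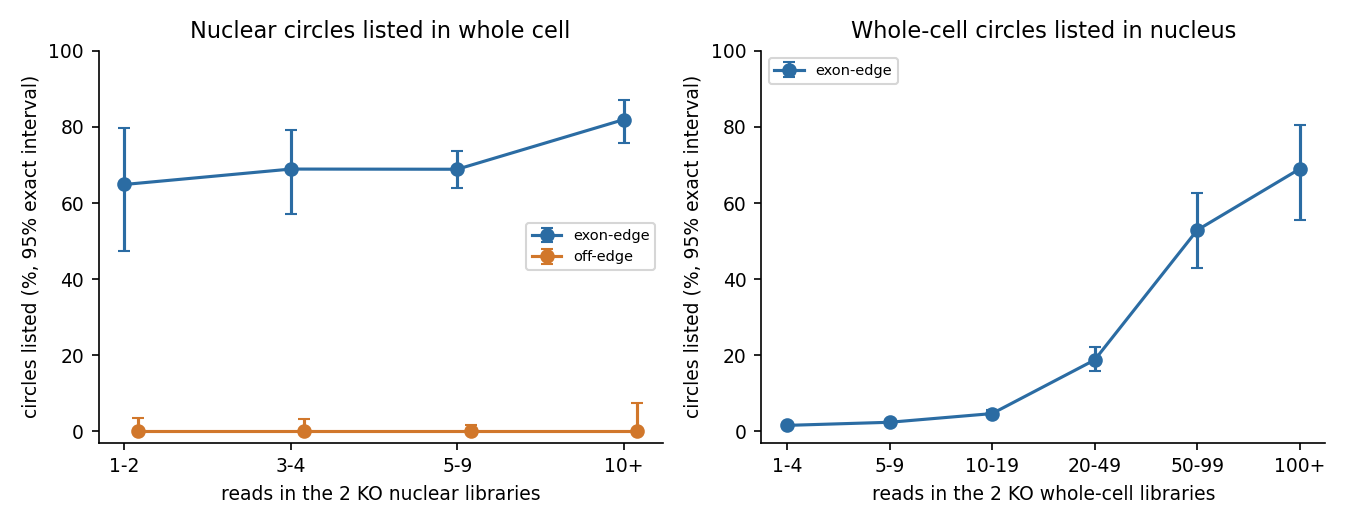
Percent of circles that the other KO fraction also listed (y axis, points with 95% exact intervals) by their junction reads in their own fraction (x axis). Exon-edge nuclear circles (blue, left) went from 64.9% to 81.9% and off-edge ones (orange) stayed at 0, while exon-edge whole-cell circles (right) went from 1.58% to 69.0%.

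Circles with at least 10 reads over the 4 libraries were compared between the fractions with edgeR, and the direction of a difference depended on the scaling. Under TMM scaling, which sets the fractions equal over the circles found in both, 186 of 3949 circles (4.71%) were higher in the nucleus and 3436 (87.0%) lower at an adjusted p under 0.05. Scaled to each library's total of junction reads over the circles tested, 265 (6.71%) were higher and 11 (0.279%) lower. The 3357 exon-edge circles tested that only whole-cell RNA listed were all called lower under TMM and 11 of them under the scaling to totals. Without the first nuclear replicate, 10 circles were higher and 0 lower, and without the second, 5 were higher and 0 lower. Without the first or the second whole-cell replicate, 704 or 826 were lower, and only 1118 or 1224 circles then reached 10 reads. The 2 fits without a nuclear replicate had 579 and 577 lower circles at an unadjusted p under 0.05. The whole-cell-only circles had 0 nuclear reads, and for most of them a shortage was not detectable at the nuclear depth under total scaling.

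Among the 451 exon-edge circles tested that both fractions listed, 99 were higher in the nucleus, 31 lower and 321 neither under TMM, with a median log2 difference of 0.35. Under the scaling to totals, 177 were higher and 0 lower, with a median log2 difference of 2.43. The 31 lower calls thus rested on the scaling. Called higher under TMM, TMM with singleton pairing and total scaling alike were 87 circles, and 0 were lower under all 3. DESeq2 called 2 of the 451 higher and 24 lower, and without scaling 2 were higher and 80 lower. Across these 5 settings, 0 circles were called higher in every one. Over the 479 circles in both, the ratio of summed nuclear to summed whole-cell reads, taken without scaling, had a median of 0.400 and ran from 0.00629 to 11. The same ratio was 0.0749 for the library totals of all classes and 0.0507 for the exon-edge totals. In 100 circles the nuclear reads outnumbered the whole-cell reads, in 15 they were equal, and in 364 they were fewer. The 479 circles were selected by being in the shallow nuclear lists, where they had a median of 8 reads. Their nuclear and whole-cell reads were weakly correlated (Spearman 0.164). The part of this selection in the higher calls and in the ratios was not tested.

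**Figure D3:**
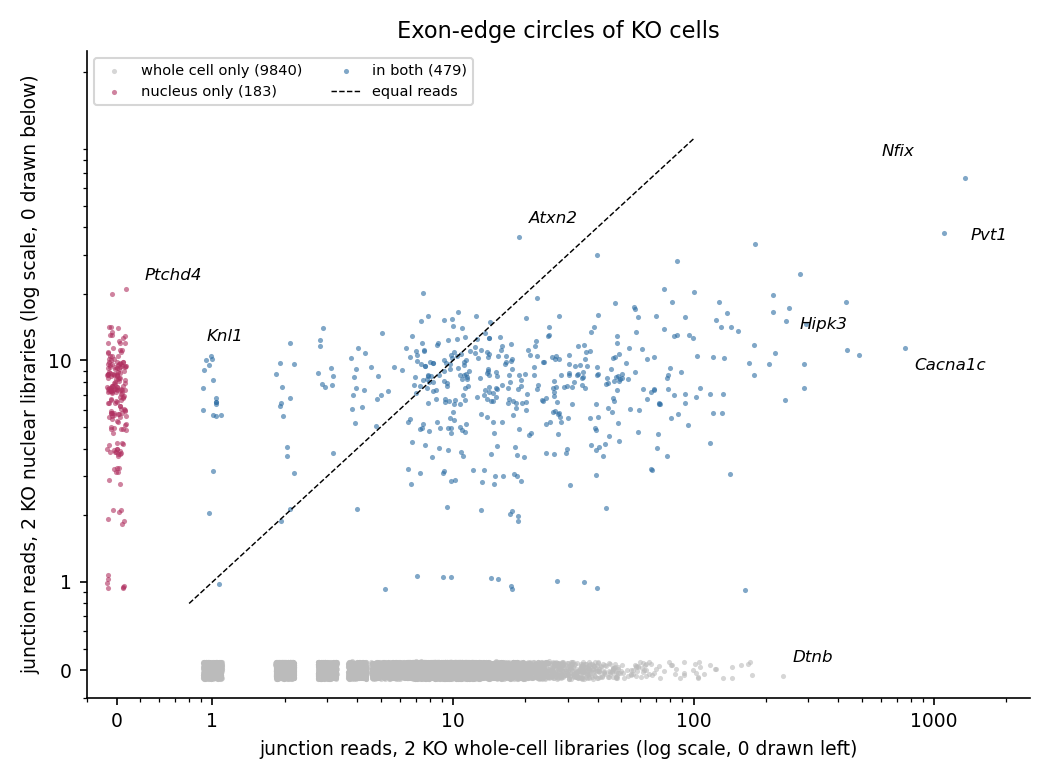
Junction reads of each exon-edge circle summed over the 2 KO whole-cell libraries (x axis) and the 2 KO nuclear libraries (y axis), both on log scales with 0 drawn apart and points shifted slightly at random so that equal counts do not cover each other. The 479 circles in both fractions spread over a wide range of whole-cell reads at similar nuclear reads, and the dashed line marks equal reads, with 100 circles above it.

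The most abundant exon-edge circle in both fractions was the single-exon circle of Nfix, a transcription factor of the nuclear factor I family. It lay at chr8:84771784-84772315 (minus strand, exon 2 of 9 of its transcript, 532 bases, both ends coding). It had 14 and 48 reads in the nuclear and 681 and 677 reads in the whole-cell libraries. Its log2 difference was -2.63 ± 2.85 (SE) under TMM and did not pass the test (edgeR adjusted p = 0.371), while DESeq2 called it lower at -2.996 (adjusted p = 0.00399). In KO cytoplasm it had 682 and 685 reads. In WT the same circle had 5 and 43 nuclear reads, 1837 and 1871 cytoplasmic reads, and only 2 and 0 whole-cell reads, far from the KO whole-cell counts. The exon 2 circle of Pvt1, a long noncoding RNA gene next to Myc, was similar. It lay at chr15:62107148-62107465 (plus strand, 318 bases) and had 10 and 28 nuclear and 566 and 569 whole-cell reads in KO. Its WT whole-cell libraries had 1 and 2 reads, and its WT cytoplasmic libraries 834 and 838. Under TMM its log2 difference was -3.08 ± 2.58 (SE, edgeR adjusted p = 0.246), and DESeq2 called it lower (adjusted p = 0.000675).

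The Atxn2 circle was the opposite case. Atxn2 encodes ataxin-2, an RNA-binding protein, and the circle spanned exons 6 to 8 of 25 at chr5:121772667-121778105 (plus strand, 412 spliced bases). It had 20 and 19 nuclear reads and 11 and 7 whole-cell reads, so that both nuclear libraries lay above both whole-cell libraries in spite of their lower depth. In KO cytoplasm it had 6 and 47 reads, which lay on both sides of the nuclear counts. It was higher in the nucleus by 2.90 ± 0.902 (SE) on the log2 scale under TMM (edgeR adjusted p = 0.0113) and by 5.02 under total scaling (edgeR adjusted p = 2.89e-07), and DESeq2 gave 2.61 (adjusted p = 0.0230). With either nuclear replicate left out it no longer passed (edgeR adjusted p = 0.137 in both cases), nor did it without scaling or without the filter. In WT it had 0 and 1 nuclear and 14 and 21 whole-cell reads.

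The other circles with most nuclear reads came from genes of varied function. Zfp516, a zinc finger gene, had a single-exon circle of 1926 bases with 16 and 15 nuclear and 134 and 56 whole-cell reads. Tcf25 had a circle of exons 3 to 4 with 3 and 27 nuclear and 22 and 15 whole-cell reads, so its nuclear replicates were far apart. Fgfr1, a fibroblast growth factor receptor, had a circle of exon 3 alone with 16 and 12 nuclear and 59 and 30 whole-cell reads. For Cped1 the counts were 13 and 12 in the nucleus and 268 and 33 in the whole cell. Fbxl17, an F-box gene, had 12 and 9 nuclear and 81 and 18 whole-cell reads. None of these 5 passed the edgeR test under TMM, with adjusted p between 0.0856 for Tcf25 and 0.888 for Fgfr1. Tcf25 and Fgfr1 were higher in the nucleus under total scaling (edgeR adjusted p = 0.000240 and 0.0464).

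Circles of 4 of the 5 host genes that had been picked for imaging in these cells were listed. Hipk3, a homeodomain-interacting kinase, gives a well-studied circle of its exon 2, here at chr2:104470749-104471847 (minus strand, 1099 bases). It had 8 and 8 nuclear and 170 and 88 whole-cell reads, with a log2 difference of -2.20 ± 1.26 (SE) under TMM (edgeR adjusted p = 0.0873) and -0.05 under total scaling. DESeq2 called it lower (adjusted p = 0.0176). In WT the same circle had 12 and 13 nuclear and 161 and 90 whole-cell reads. The most abundant Specc1 circle, exons 6 to 10, had 0 nuclear and 14 and 5 whole-cell reads, too few for its absence from the shallow nuclear lists to be read as a difference. The most abundant Wwc1 circle had 0 nuclear reads and 1 read in each whole-cell library. No exon-edge circle of Adarb1 was listed in these 4 libraries.

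**Figure D4:**
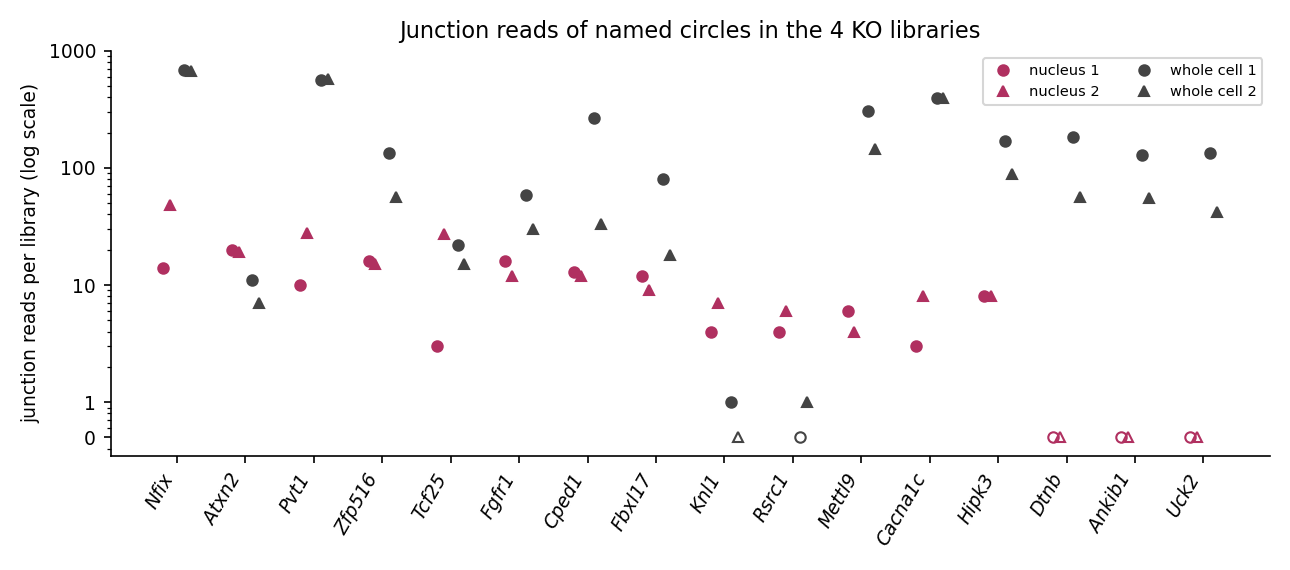
Junction reads per library (y axis, log scale, open symbols at 0) of named circles in the 2 KO nuclear (red) and 2 KO whole-cell (grey) libraries, circles and triangles for the first and second replicate. Atxn2, Knl1 and Rsrc1 had more nuclear than whole-cell reads, and Nfix, Pvt1 and Cacna1c had whole-cell counts far above the nuclear ones.

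The circles at both ends of the ratio order were looked at among the 154 shared circles with at least 10 nuclear reads, and were chosen after their values were seen. In 48 of the 154 the nuclear reads outnumbered the whole-cell reads. Knl1, a kinetochore scaffold gene, had the highest ratio, 11, with a circle of exons 9 to 11 at chr2:119076936-119081625. It had 4 and 7 nuclear reads and 1 and 0 whole-cell reads, and its log2 difference was 4.82 ± 0.999 (SE) under TMM (edgeR adjusted p = 6.6e-05). In WT the Knl1 circle had 1 and 1 nuclear and 27 and 15 whole-cell reads. The circle of exons 2 to 3 of Rsrc1, a gene linked to splicing, had 4 and 6 nuclear and 0 and 1 whole-cell reads in KO, but 78 and 64 cytoplasmic reads in KO and 91 and 79 whole-cell reads in WT. Its low whole-cell count in KO thus stood against the other libraries. Pik3c2a and Col4a5 circles each had 6 and 4 nuclear reads, and their whole-cell reads were 1 and 0, and 0 and 1. At the low end, the Cacna1c circle of exons 2 to 3 had 3 and 8 nuclear reads and 394 in each whole-cell library, a ratio of 0.0140. Mettl9 had 6 and 4 nuclear and 307 and 146 whole-cell reads, and Rasa2 had 4 and 8 nuclear and 353 and 70 whole-cell reads. The Mettl9 and Rasa2 circles were lower in the nucleus under TMM, with log2 differences of -3.68 and -3.33 (edgeR adjusted p = 0.0307 and 0.0411), but had no call under total scaling (edgeR adjusted p = 0.373 for both).

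The 183 exon-edge nuclear circles that KO whole-cell RNA did not list had a median of 7 reads over both nuclear libraries, against 8 for the shared ones. Only 3 of them were listed in WT whole-cell RNA, while 175 were listed in the WT nucleus. In KO cytoplasm 45 of them were listed, and 136 were in no cytoplasmic or whole-cell library of the series. Their hosts were mostly known circle producers here, since 135 of the 183 lay in a gene with another whole-cell circle. For 17, both ends were used by other whole-cell circles, for 61 1 end was, and for 105 no end was.

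Ptchd4, which encodes a patched domain protein, had the most nuclear reads of these, 8 and 13, at chr17:42377160-42377640 (plus strand, exon 3 of 4, 481 bases). Against the limit of 3 reads over both whole-cell libraries, its share of junction reads was 93.5-fold higher in the nucleus. This fold and those below assume that a circle not listed had 0 reads, which cannot be checked without the filters on the lists. They also take the reads in the fraction that listed the circle as exact, so they are not lower bounds. The Ttll5 circle of exons 16 to 17, from a tubulin glutamylase gene, had 11 and 8 nuclear reads and was 84.6-fold higher by the same limit. It had 2 and 1 reads in KO cytoplasm. Ptpn11, which encodes the phosphatase SHP2, had a circle of exons 2 to 3 with 5 and 9 nuclear reads, 62.3-fold higher by the same limit. The next 6 circles, among them those of the ubiquitin ligase gene Traf7, the autophagy gene Ambra1, the chromatin remodeller Ep400, the annexin Anxa2 and the deacetylase Hdac9, had 13 nuclear reads each. In WT nuclei the Ptchd4 circle had 0 and 1 reads and the Ttll5 circle 3 and 1. All of them were called higher by the fit, as a circle with 10 or more nuclear reads and 0 whole-cell reads had to be, so these calls are no separate evidence.

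The reverse group was much larger: 9840 exon-edge whole-cell circles were listed in neither nuclear library. Dtnb, which encodes dystrobrevin beta, led it with 183 and 56 whole-cell reads for a circle of exons 5 to 8 at chr12:3617606-3648389 (plus strand, 514 spliced bases). The folds here again assume 0 reads for a circle not listed and take the whole-cell reads as exact. Against the limit of 3 nuclear reads over both libraries the Dtnb circle's share of junction reads was 5.97-fold lower in the nucleus. The Dtnb circle was called lower under TMM (edgeR adjusted p = 0.00119) and under total scaling (edgeR adjusted p = 0.00550). The Ankib1 circle of exons 2 to 5, from a ubiquitin ligase gene, had 129 and 55 reads and was 4.59-fold lower by this limit. Uck2, a uridine-cytidine kinase, had 135 and 42 reads for exons 2 to 4, and Fryl had 126 and 39 for exons 2 to 3. The insulin receptor gene Insr had 103 and 41 reads for exon 2 and Ttc3 109 and 35 for exons 2 to 11. Both were 3.59-fold lower by this limit. None of these 6 circles was listed in the WT nucleus either, and the WT whole-cell libraries had between 61 and 156 reads of each. The nuclear lists of the genotypes were largely the same, with 1118 of 1148 KO nuclear circles also in WT. The 6 circles were picked for having 0 nuclear reads, so their calls are no separate evidence. Another Ankib1 circle was in both fractions, with 3 and 7 nuclear reads. Dtnb, Ankib1, Uck2, Fryl, Insr and Ttc3 were lower under TMM, total scaling, TMM with singleton pairing and DESeq2, but none of the 6 passed without scaling (edgeR adjusted p from 0.0523 to 0.0674), and with either nuclear replicate left out no circle was called lower. The 5 circles with the smallest p under TMM in this direction, of Rabep1, Cnot6l, Pakap, Eefsec and Rnf169, also had 0 nuclear reads, and those of Cnot6l and Eefsec did not pass under total scaling (edgeR adjusted p = 0.0631 for both).

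Off-edge circles differed from exon-edge ones in where and how they lay in the genome. All 468 had the GT and AG of a splice site next to their ends on 1 strand, as did every exon-edge circle listed, since the caller requires it. The windows below show the bases around the ends of 3 of them, with the donor GT or the acceptor AG in capitals.
Cbfb donor: ggaaatggagGTgagagttt
Cbfb acceptor: gtctctccAGttttttccgg
Ctnna2 donor: ggctcatatgGTaactattc
Ctnna2 acceptor: tatgtattAGacaaaacaaa
Nfat5 donor: aaattgacagGTtaggggct
Nfat5 acceptor: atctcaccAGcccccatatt
Their genomic span was short, with a median of 239.5 bases against 5554 for exon-edge circles in both fractions, and 293 of the 468 (62.6%) spanned at most 300 bases against 21 of 662 exon-edge nuclear circles (3.17%). Of the 468, 222 had both ends in introns of 1 gene, 65 had both ends inside exons and 34 had 1 end in an exon. In 130 neither end lay in a gene, and 17 had ends in no common gene. In 37 of them 1 end was an exon edge, and 5 had both ends on RefSeq exon edges.

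Where an off-edge circle lay in a gene, its splice sites pointed along the gene in 164 of 321 cases (51.1%) and against it in 157. Where genes of both strands overlapped, the gene that matched the splice sites was taken, which can only raise the share along the gene. All 662 exon-edge nuclear circles pointed along their gene, as the class requires. Soft-masked repeat sequence made up at least 50% of the bases next to the ends, 20 inside each end, in 16.9% of the off-edge circles and in 2.71% of the exon-edge circles in both fractions. The strand was read from the GT and AG in the genome, not from the reads. The bases around the 2 ends, up to the first mismatch on each side, were identical over 10 or more positions in 20 off-edge circles (4.27%) and in 0 of 662 exon-edge nuclear circles. Their reads had a median of 5 and a highest value of 18 over both nuclear libraries. In the WT nucleus 457 of the 468 were listed, and in cytoplasmic or whole-cell libraries of either genotype 0 were. Over all classes 1118 of the 1148 KO nuclear circles were listed in the WT nucleus, so that listing is not particular to off-edge circles.

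The off-edge circle with most nuclear reads lay in Cbfb, which encodes the beta subunit of core-binding factor, at chr8:105178629-105202547 with both ends inside exons. It had 10 and 8 nuclear reads. The next, with 6 and 11 reads, lay at chr12:109680764-109682347 with neither end in a gene, over the small nucleolar RNA genes Gm23736 and AF357341, and its ends were identical over 66 bases. One in an intron of Ctnna2, the gene of catenin alpha 2, had 6 and 9 reads at chr6:77202511-77204758, and its splice sites pointed against the gene. A circle at chr9:46555490-46555710, with neither end in a gene, had 5 and 10 reads. A circle at chr5:88088806-88140171, with 1 end in Smr2, had 6 and 8 reads and ends identical over 20 bases. The intron of Nfat5, an osmotic stress transcription factor gene, held a circle with 7 and 7 reads at chr8:107334912-107335484, and an off-edge circle of Snai2 tied with it at 14 reads in sum. All of these had 0 reads in the 4 whole-cell libraries of KO and WT.

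The genes with several off-edge circles were few. Of 306 hosts, 12 had at least 2, and Fn1 had the most, 4. Fn1 encodes fibronectin, a main matrix protein of fibroblasts, and its mRNA stood at 854 ± 114 RPKM (reads scaled to gene length and library total; SD, n = 3) in the KO mRNA-seq libraries. All 4 Fn1 circles had both ends inside exons and splice sites pointing against the gene, and together they had 11 and 25 nuclear reads. Malat1, an abundant nuclear long noncoding RNA, had 3 off-edge circles with 9 and 13 reads, and its RNA stood at 158 ± 49.1 RPKM (SD, n = 3). Over the 59 hosts of circles with both ends in exons the median mRNA level was 9.59 to 11.4 RPKM in the 3 KO libraries, and over the 214 hosts of circles with both ends in introns it was 2.50 to 2.87. The 416 hosts of exon-edge circles in both fractions had a median of 8.92 to 10.2. Of the hosts of off-edge circles, 132 had an exon-edge circle in whole-cell RNA and 37 had one in the nucleus.

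Of the 7 nuclear rows with several positions, the one on chromosome 17 had 30 and 32 reads in KO, more than any off-edge circle. Its 8 positions began at chr17:39844698-39845193, and it had 0 and 2 reads in the WT nucleus. The row on chromosome 1, among the 5 smallest p of the circle fit, had 9 and 8 reads.

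The exon-edge circles of the nucleus were shorter in annotated exon sequence than those of the whole cell. Spliced length here and above is the sum of the annotated exons between the ends. The junction reads do not show whether introns were kept. The median spliced length of the exon-edge circles was 394.5 and 395.0 bases in the nuclear libraries and 521.0 and 516.5 bases in the whole-cell libraries. The difference was -124.0 bases with no overlap (exact two-sided permutation, p = 0.333). Circles in both fractions had a median of 400 bases, nucleus-only ones 369.0 and whole-cell-only ones 527.0. Circles of a single exon made up 10.8% and 10.9% of the exon-edge circles of the nuclear libraries and 4.40% and 4.37% of those of the whole-cell libraries. WT was alike, with median lengths of 393.0 and 399.0 bases in the nucleus and 520.0 and 518.0 in the whole cell. Single-exon circles made up 11.2% in each WT nuclear library and 4.49% and 4.41% in the WT whole-cell libraries. Of single-exon KO whole-cell circles 12.2% were listed in the KO nucleus, against 2.15% of those with 5 or more exons. Exon 2, the first exon with an upstream splice acceptor, was the first exon of 40.7% of the circles in both fractions, 19.7% of nucleus-only and 29.9% of whole-cell-only circles. These groups also differed in whole-cell reads, with a median of 17 in the circles in both fractions and 8 in the whole-cell-only ones, and the part of reads in the length difference was not tested.

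**Figure D5:**
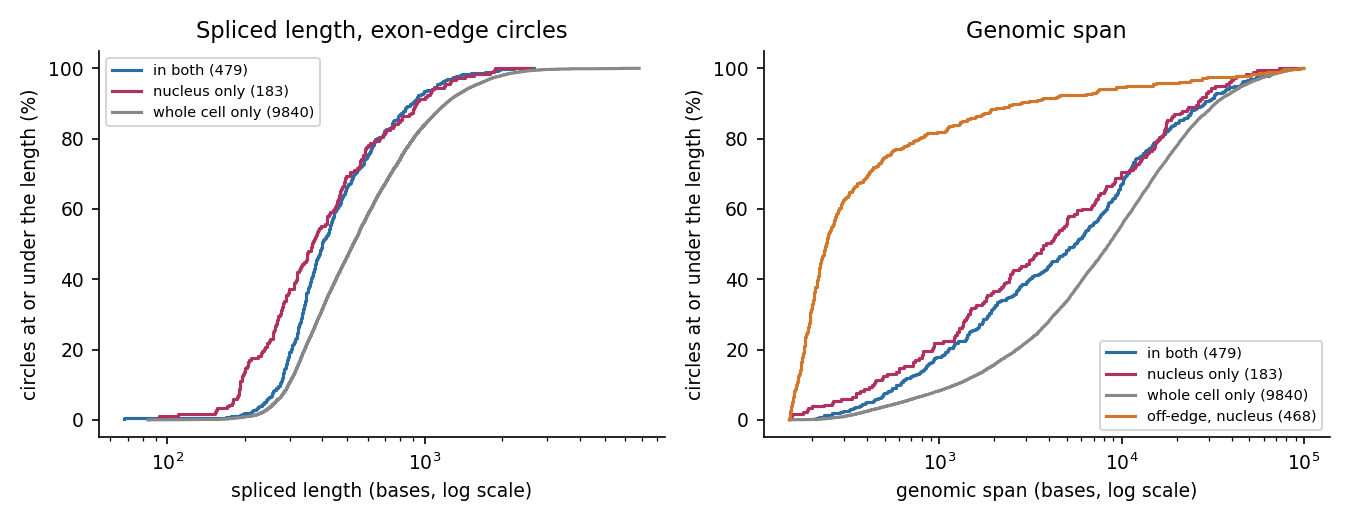
Percent of circles at or under a given length (y axis) by spliced length (left) and genomic span (right), both in bases on log scales, with the number of circles of each group in parentheses. Whole-cell-only exon-edge circles (grey, median 527.0 spliced bases) were longer than those in both fractions (blue, 400) and in the nucleus only (red, 369.0), and off-edge circles (orange) had the shortest spans, with a median of 239.5 bases.

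By host gene, the exon-edge nuclear circles came from 566 genes, and 519 of these also had an exon-edge circle in KO whole-cell RNA. The same circle was shared in 416 hosts, and in 103 hosts the fractions listed different circles of the gene. Another 47 hosts had nuclear circles alone, and 3311 had whole-cell circles alone. A single nuclear circle was found for 490 hosts, 2 for 62 and 3 or more for 14. Tasp1, which encodes the protease taspase 1, had the most, 5, with 15 and 24 nuclear and 157 and 78 whole-cell reads, and 4 of its nuclear circles were shared. Gas2 had 4 nuclear circles, all shared, Zfp827 had 4 of which 3 were shared, and Afap1 had 4 of which 2 were shared. None of these 4 hosts differed between the fractions under TMM (edgeR adjusted p from 0.0576 for Afap1 to 0.902 for Tasp1), while Tasp1 and Afap1 were higher under total scaling (edgeR adjusted p = 0.015 and 6.49e-05).

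With exon-edge reads summed per gene, 111 of 2501 hosts (4.44%) were higher in the nucleus and 1333 (53.3%) lower under TMM. Scaled to totals over the hosts tested, 215 (8.6%) were higher and 48 (1.92%) lower. Without the first or the second nuclear replicate, 41 or 49 hosts were higher and 254 or 303 lower. The 5 hosts with the smallest p among the higher ones, Ptchd4, Fancl, Traf7, Prkg1 and Sh3bgr, had 0 whole-cell reads. Fancl, a ubiquitin ligase gene of the Fanconi anaemia pathway, had 2 nuclear circles with 10 and 7 reads in all. This was 75.7-fold more of the junction reads than the limit of 3 whole-cell reads. This fold and those of Ttc3 and Srbd1 below also assume 0 reads for a circle not listed and take the other fraction's reads as exact. The 5 with the smallest p among the lower ones, Cntln, Srbd1, Fryl, Uck2 and Ttc3, had 0 nuclear reads. Ttc3 had 181 and 93 whole-cell reads over 8 circles and was 6.84-fold lower against the limit of 3 nuclear reads. Srbd1 had 117 and 118 over 17 circles and was 5.87-fold lower.

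Host lists were read in the same fit, in which 4.44% of all hosts tested were higher and 53.3% lower under TMM. Under total scaling these shares were 8.6% and 1.92%. Of 37 well-studied conserved circRNA hosts, 29 had a KO whole-cell circle and 9 a nuclear one, with 10 of their 11 nuclear circles shared. Of 23 tested, 1 was higher in the nucleus and 16 lower under TMM, and 1 higher and 3 lower under total scaling, with a median log2 difference of -6.04 under TMM against -5.33 over all 2501 hosts. The higher one was Mbnl1, the splicing regulator muscleblind, with 3 and 5 nuclear and 8 and 9 whole-cell reads (log2 difference 1.57 ± 0.640 (SE), edgeR adjusted p = 0.0349). The Foxo3 circle, which spans the single long exon of a forkhead transcription factor gene, had 2 and 5 nuclear reads and 0 whole-cell reads. Of 23 transcriptional and chromatin regulators, 21 had a whole-cell and 9 a nuclear circle, and of 19 tested 0 were higher and 12 lower under TMM, against 3 higher and 0 lower under total scaling (median log2 difference -4.59 under TMM). Ncor1, a nuclear receptor co-repressor, had 18 and 9 nuclear and 68 and 75 whole-cell reads, and the histone methyltransferase gene Nsd2 had 11 and 10 nuclear and 332 and 228 whole-cell reads. Over all hosts, 3830 had a whole-cell and 566 a nuclear circle.

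The 6 hosts of circles described as nuclear gave little. The counts below stand against 4.44% higher and 53.3% lower under TMM over all hosts tested, and 8.6% and 1.92% under total scaling. Paip2 had 1 circle in both fractions, with 2 and 1 nuclear and 106 and 34 whole-cell reads, and was lower in the nucleus under TMM (log2 difference -2.84 ± 0.765 (SE), edgeR adjusted p = 0.00142) but not under total scaling (edgeR adjusted p = 0.307). Of 2 tested, 0 were higher and 2 lower under TMM (median log2 difference -4.54), and under total scaling neither was called. In a list of 8 long noncoding RNAs taken as nuclear, Gas5 had 1 exon-edge nuclear circle, shared, with 7 and 5 nuclear and 5 and 5 whole-cell reads. Gas5 is a host of small nucleolar RNAs, and where its linear RNA lies was not tested. Gas5 was the single member tested and its circle reads were higher in the nucleus under both scalings (log2 difference 2.89 ± 0.617 (SE) under TMM, edgeR adjusted p = 8.91e-05). Of 16 matrix and adhesion hosts, 6 had a whole-cell and 2 a nuclear circle, and of 5 tested 2 were higher and 2 lower under TMM (median log2 difference -4.72), and the same counts were 2 and 0 under total scaling. The higher ones were Adamts6, a metalloproteinase gene, with 4 and 4 nuclear and 0 and 2 whole-cell reads, and Fn1, with 7 and 5 nuclear and 10 and 20 whole-cell reads. In neither gene was the nuclear circle itself listed in whole-cell RNA.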

How the data were processed

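CircRNA-seq of nuclear and whole-cell RNA (RNase R-treated, rRNA-depleted) and mRNA-seq of NIH/3T3 cells were analysed. The authors trimmed reads, ran find_circ and deposited, per library, each circle's position (mm10) with its whole-number count of junction reads, not normalized. The mRNA values are deposited counts of reads per gene from featureCounts after HISAT2. The heading inside each mRNA file names the other genotype, and the titles were followed. The methods state a sequencing depth in bases and that circles found in both replicates were merged, while other filters on the lists and read totals per library are not given in the sources used here.

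Circle ends were matched to GENCODE M21 exons on GRCm38 (Python 3.11.15, pandas 2.3.3, pysam 0.24.0), preferring basic transcripts and then the longest circle. The count tests used the quasi-likelihood functions glmQLFit and glmQLFTest of edgeR 4.0.16 in R 4.3.3 (TMM, at least 10 reads over 4 libraries, Benjamini-Hochberg, threshold 0.05), after the code was tested on simulated data. DESeq2 (version 1.42.0), other scalings, no filter, left-out libraries and a replicate block were alternatives. Shares and medians were compared by exact permutation over libraries (scipy 1.17.1), and intervals are Clopper-Pearson at 95% over circles. Folds against 0 reads use 3 reads over both libraries of the fraction and the totals of the whole lists, while total scaling in the fits uses the reads of the features tested. The folds assume that a circle not listed had 0 reads and leave out the counting error of the other fraction. Named circles are the most abundant of 5 imaged hosts, those with most reads in each listing group, and the 5 smallest p in each direction, with ties taken by position. Of the 8 nucleus-only circles so named, 1 is given only by its read number, and 1 of the hosts with most nuclear circles is not reported here. Members and lists were chosen with earlier results of these data known. For mRNA levels, RPKM was computed from the deposited counts and the gene lengths in the files.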

Additional observations from a re-analysis of the deposited data

How the results depend on the processing

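The lists rest on 2 libraries per fraction, the nuclear ones with 3743 and 4383 junction reads, and calls of lower circles depend on the scaling. Circles higher in the nucleus numbered 186 under TMM, 26 without scaling, 87 with DESeq2 and 508 without the filter, and lower ones 3436 under TMM, 421 with TMM with singleton pairing, 11 by totals, 1328 without scaling, 219 with DESeq2 and 30 without the filter. Hosts higher numbered 111 under TMM, 215 by totals, 8 without scaling and 47 with DESeq2, and lower ones 1333, 48 by totals, 2022 without scaling, 410 with DESeq2 and 728 without the filter. The cause of these shifts was not tested beyond the scaling itself. With each library left out in turn, circles ranged from 5 to 194 higher and 0 to 826 lower, and hosts from 41 to 112 higher and 254 to 1231 lower. With the replicate block, 207 circles were higher and 3433 lower, and 112 hosts were higher and 1328 lower. The deviations of libraries with the same number were uncorrelated (-0.00467 over circles and -0.0404 over hosts), so the numbers were not taken as pairs. With exon-edge circles alone, 132 were higher and 3389 lower.

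The share of nuclear circles listed in whole-cell RNA was 41.5% where both whole-cell replicates had to list a circle, 47.5% from 2 and 58.0% from 5 nuclear reads, and 42.5% to 43.8% with a library left out. For exon-edge circles these were 69.3%, 72.9% and 76.0%, 72.7% with ends within 5 bases, and 70.9% to 72.7% with a library left out. The read-weighted share was 72.8% where both had to list, 78.8% from 5 reads, and 74.0% to 75.6% with a library left out. The off-edge share stayed at 0 in every alternative run. The nuclear excess of off-edge circles was 34.3 percentage points from 2 reads and 39.2 to 39.8 with a library left out. The difference in median length was -118.5 bases from 2 reads, -100.5 over reads, -126.2 to -121.8 with a library left out, and -3419 bases for genomic span.

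Single circles turned direction as follows, none of them called under TMM. By totals the log2 differences were 1.36 for Zfp516, 0.45 for Cped1 and 1.77 for Fbxl17, and with singleton pairing Fbxl17 was at 0.057. Without scaling, Tcf25 was at -0.30 and Fgfr1 at -1.66, and with DESeq2 Fgfr1 was at -0.15. With a library left out, Tcf25 ranged from -0.61 (without the second nuclear replicate) to 2.53, Fgfr1 from -0.10 (without the second whole-cell replicate) to 0.52, and Fbxl17 from -0.97 (without the second whole-cell replicate) to 0.46 (without the first). Without the second whole-cell replicate, the circles of Hipk3, Nfix, Pvt1, Zfp516, Cped1 and Fbxl17 were called lower and that of Tcf25 higher. Without the first, Hipk3 and Pvt1 were called lower and Tcf25 higher, and without the filter Nfix and Pvt1 were called lower.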
